A study of Mus musculus with 6 samples.

Results

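Matrix metalloproteinases are zinc-dependent proteases that cut collagens, elastin and other proteins of the extracellular matrix, and the 4 Timp genes encode their tissue inhibitors. The 10 genes described here are 6 metalloproteinases outside neutrophil granules (Mmp2, Mmp3, Mmp11, Mmp12, Mmp14 and Mmp19) and the inhibitors Timp1, Timp2, Timp3 and Timp4. They were chosen by symbol, and each symbol had 1 row among the 20494 rows of the authors' deposited table. RNA was taken from whole lungs of untreated male C57BL/6 mice, 4 months old, 3 lacking lincRNA-Cox2 and 3 wild type. The deleted gene lies beside Ptgs2, which encodes inducible cyclooxygenase, and its product is a long noncoding RNA without a protein. The labels do not say how the knockout was made or whether the mice were littermates.

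Most metalloproteinases leave the cell, or sit in its membrane, as inactive proenzymes whose propeptide must be removed. A TIMP then blocks the active site of the mature enzyme by binding it tightly, so that the amount of active protease is set by transcription, activation and inhibition together. In lung these proteins are known from alveolar growth, repair and emphysema, and several of their genes are textbook targets of AP-1, the dimer of Fos and Jun proteins. Only RNA was measured here, and neither protease activity nor protein was.

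The authors' deposited table gives the mean normalized count of each genotype (gene counts divided by a size factor for each library) and the authors' DESeq2 comparison. The normalized means summed to 37118488 in wild type and 36839329 in knockout, which does not give the depth of single libraries. LincRNA-Cox2 itself fell from 311 to 0.666 normalized counts and Ptgs2 from 2929 to 298 in the authors' deposited table. Genes that define lung cells were abundant, the 4 markers of alveolar type 2 cells lying between 24057 and 82187 normalized counts in wild type. Of 4 liver genes used as an outside control, 2 had rows, with 32.6 and 61.6 in wild type.

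1 knockout library stood apart in reads of Wt1, a marker of the mesothelium, the cell layer that covers the lung. Of 6 mesothelial markers, 4 were 5.44-fold (Msln) to 9.60-fold (Upk3b) higher in the knockout mean of the authors' deposited table, which lists their p-values as NA. The other 2, Krt19 and Upk1b, had ratios of 0.997 and 0.976 and were not called. The list summed to 7467 in wild type and 10516 in knockout, of which Krt19 alone gave 6023 and 6006. The whole table had 17 rows without a p-value, 16 of them higher in knockout. For low genes the group means could be resolved into whole reads of single libraries, and Wt1, a mesothelial transcription factor, had 11, 13 and 3 reads in wild type and 28, 137 and 35 in knockout. In 6 of 6 rows without a p-value whose knockout reads could be resolved, the same library was highest. Of the 4 markers, only Wt1 was among these rows. DESeq2 can leave out a p-value because of 1 outlying library, so a high library was partly built into the choice of rows. The members could not be resolved into reads, so none of their values could be computed without the library highest in Wt1. The part of that library in them was not tested.

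None of the 10 genes was called different between the genotypes. In the authors' DESeq2 comparison 0 of 10 had an adjusted p under 0.05, the threshold for a call throughout, against 1.09% of the 16902 tested rows. At an unadjusted p under 0.05 there were also 0 of 10, against 8.47% of tested rows. By the group means 4 genes were higher in knockout and 6 lower, with a median log2 ratio of -0.02, beside -0.0013 over all tested rows. The ratios ran from 0.912 for Mmp2 to 1.14 for Timp4. Because the RNA came from whole lung, fewer cells of a type and less RNA per cell cannot be told apart in any of these values.

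The range of change that the data allow was read from the authors' Wald statistics. Dividing the log2 ratio of the means by that statistic gives the standard error before the authors' shrinkage, and 1.96 such errors on either side give a 95% interval. For 9 of the 10 genes that interval lay within 1.5-fold in either direction, and for 5 (Mmp11, Mmp14, Mmp19, Timp2 and Timp3) within 1.25-fold. Timp4 was the exception to the wider limit, with an upper bound of 1.55-fold. These intervals rest on 3 libraries per genotype and on a spread that the authors' model shares across genes. The labels list separate samples without saying how the mice were housed or handled, so the p-values measure the spread between these samples.

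Mmp2 encodes gelatinase A, which cuts type IV collagen of basement membranes and denatured collagen. It lies on chromosome 8 from 92827291 to 92853420 (mm10, plus strand). Its mean was 2542 normalized counts in wild type and 2318 in knockout in the authors' deposited table. That is a ratio of 0.912, with a 95% interval of 0.777 to 1.07 and an adjusted p of 0.914, the lowest adjusted p of the 10 genes.

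Mmp14 encodes the membrane-anchored protease that activates pro-Mmp2 at the cell surface, with Timp2 as the bridge between them. The gene (chromosome 14, 54431612 to 54445364, plus strand) had means of 1968 and 2005 normalized counts in wild type and knockout in the authors' deposited table. Its ratio of 1.02 came with an interval of 0.930 to 1.12. Timp2 (chromosome 11, 118301069 to 118355740, minus strand) stood at 22636 in wild type and 22809 in knockout in the same deposited table of the authors. The interval of its ratio, 0.931 to 1.09, was the narrowest of the 10. Within these limits the 3 genes of the Mmp14, Timp2 and Mmp2 activation route had adjusted p-values of 0.997, 0.997 and 0.914 in the authors' DESeq2 comparison.

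Mmp11, stromelysin-3, is a secreted protease that furin activates inside the cell. Its means were 1753 in wild type and 1661 in knockout in the authors' deposited table, a ratio of 0.948 with an interval of 0.860 to 1.04 (chromosome 10, 75923222 to 75936496, minus strand). Mmp19, a secreted protease of broad tissue distribution, had means of 1101 and 1070 there, with a ratio of 0.972 and an interval of 0.859 to 1.10 (chromosome 10, 128790910 to 128800824, plus strand). Neither gene was called (adjusted p of 0.925 and 0.997 in the authors' DESeq2 comparison). Furin, which cuts the propeptides of both Mmp11 and Mmp14, stood at 6195 and 5665 normalized counts by the authors' DESeq2 comparison and was not called either (adjusted p = 0.630).

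Mmp3 and Mmp12 belong to the metalloproteinase cluster on chromosome 9. Mmp3, stromelysin-1, is a fibroblast enzyme that degrades proteoglycans and activates other proenzymes. Wild type and knockout means were 787 and 822 normalized counts in the authors' deposited table, which gave a ratio of 1.04 and an interval of 0.870 to 1.25 (7445822 to 7455975, plus strand). Mmp12, macrophage elastase, had means of 177 and 171 in that table of the authors, and its ratio of 0.967 had an interval of 0.778 to 1.20 (7344381 to 7369499, plus strand). Both had an adjusted p of 0.997 in the authors' DESeq2 comparison. Markers of the cells that usually make them were set beside these values. Of 8 alveolar macrophage markers 0 were called and 5 were higher, and their summed mean was 30636 in wild type and 32228 in knockout in the authors' deposited table. The lowest p-values among them belonged to Marco (498 against 673, adjusted p = 0.360) and Krt79 (1127 against 968, adjusted p = 0.372), which lay on opposite sides of 1 in the authors' DESeq2 comparison. Of 8 fibroblast markers 0 were called and 6 were lower, with a median log2 ratio of -0.11. Lum and Dpt had the lowest p-values of that list (adjusted p = 0.728 and 0.853 in the authors' DESeq2 comparison).

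Timp1 is the inducible inhibitor, raised by cytokines and growth factors in many tissues. Its means were 180 in wild type and 177 in knockout in the authors' deposited table, a ratio of 0.985 with an interval of 0.780 to 1.24 (chromosome X, 20870166 to 20874735, plus strand). Timp3 is bound to the matrix and also inhibits Adam17 and other membrane sheddases. It was the most abundant of the 10 by mean normalized count, at 34577 and 33975 in the authors' deposited table, and its ratio of 0.983 had an interval of 0.891 to 1.08 (chromosome 10, 86300372 to 86349506, plus strand). Both inhibitors had an adjusted p of at least 0.997 in the authors' DESeq2 comparison, so neither the inducible nor the matrix-bound form was called.

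Timp4 is best known from heart and is also made in fat. At 96.3 normalized counts in wild type and 110.1 in knockout in the authors' deposited table it was the rarest of the 10. It had the highest ratio, 1.14, and the widest interval, 0.842 to 1.55 (adjusted p = 0.969 in the authors' DESeq2 comparison; chromosome 6, 115241892 to 115252205, minus strand). Markers of heart muscle and fat, which a lung sample can hold around its veins and at its root, lay on the other side. All 5 heart muscle markers were lower in knockout and 0 were called, with a summed mean of 15765 in wild type and 12431 in knockout in the authors' deposited table. Tnnt2 (2699 against 1685) and Nppa (704 against 197) had the lowest p-values among them, with adjusted p-values of 0.493 and 0.631 in the authors' DESeq2 comparison. All 5 fat markers were also lower and 0 were called, at a summed 2083 and 1466, led by Cidec and Retn (adjusted p = 0.247 and 0.641 in the same comparison by the authors). The part of either cell type in the Timp4 values was not tested.

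**Figure D1:**
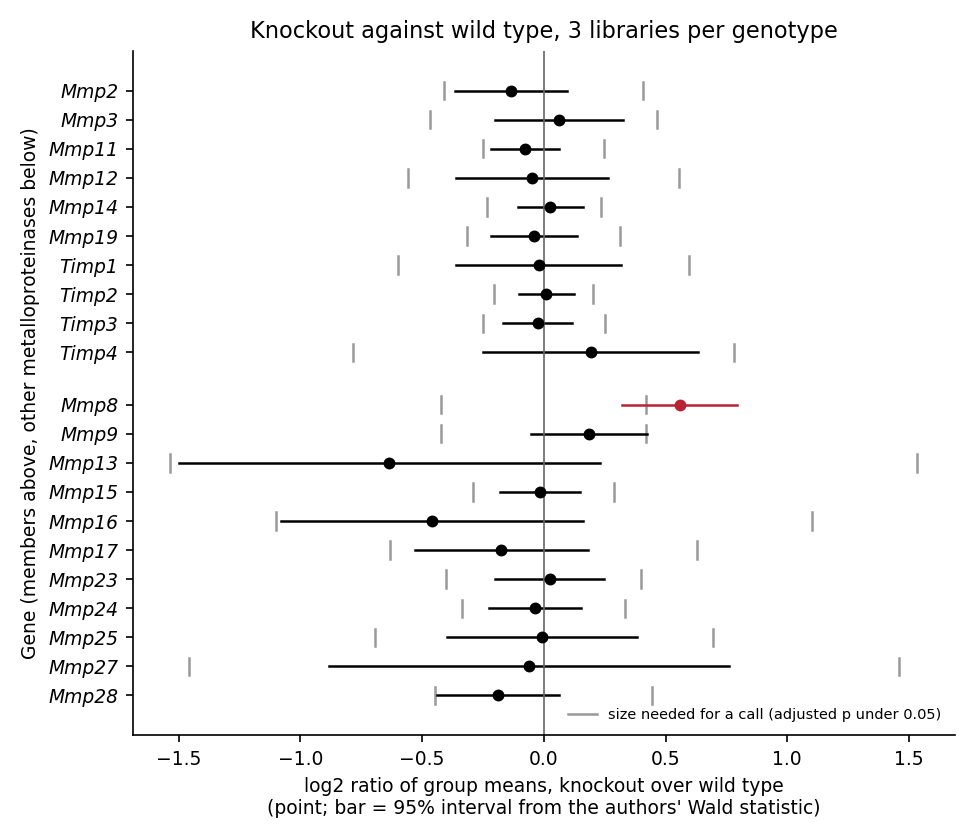
Log2 of the knockout mean over the wild type mean (horizontal axis) for the 10 members (upper block) and the 11 other metalloproteinases with an adjusted p (lower block). Points are ratios of means of 3 libraries per genotype, bars are 95% intervals from the authors' Wald statistics, and grey ticks mark the size at which a call would have been made. Every member's interval spans 0, while Mmp8 (red) lies at 0.56, beyond its tick.

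The observed change needed for a call differed among the genes. The smallest absolute Wald statistic among the 184 called rows was 3.48, and that many standard errors were taken as the size needed. For Timp2 an observed change of 1.15-fold would have been called, for Mmp14 1.18-fold, and for Mmp11 and Timp3 1.19-fold. Mmp19 needed 1.24-fold, Mmp2 1.33-fold and Mmp3 1.38-fold. The rarer genes needed more, at 1.47-fold for Mmp12, 1.51-fold for Timp1 and 1.72-fold for Timp4. In those last 3 a smaller observed change would therefore not have been called. These sizes apply to observed ratios, and how often a true change of a given size would be called was not computed.

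The same standard errors give the spread between libraries that the authors' model assigned to each gene. As a coefficient of variation it was lowest for Timp2 (4.95%), Mmp14 (5.73%), Mmp11 (6.05%) and Timp3 (6.11%). Mmp2 and Mmp3 stood at 9.98% and 11.4%, although counting error would give 2.03% and 3.53% at their means. For Timp4 the spread was 19.1%, of which counting error alone would give 9.84%. At the means of Timp2 and Timp3 counting error would give only 0.663% and 0.540%, so counting took a larger share of the spread in Timp4 than in these.

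**Figure D2:**
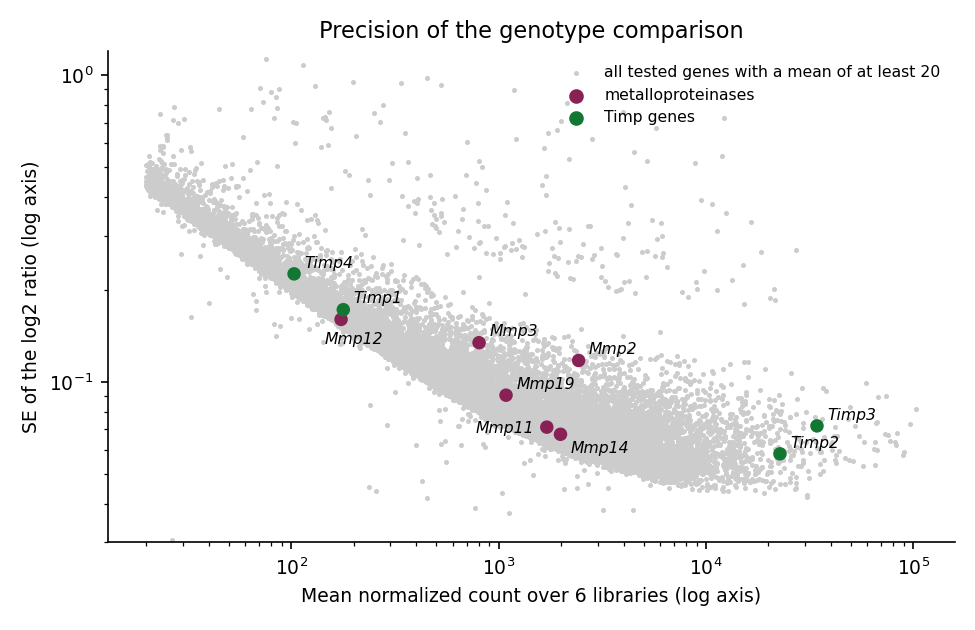
Standard error of the log2 ratio before shrinkage (vertical, log axis) against the mean normalized count over the 6 libraries (horizontal, log axis). Grey points are tested genes with a mean of at least 20 (21 of 16348 lie outside the vertical axis), purple points the 6 metalloproteinases and green points the 4 Timp genes. The error falls from Timp4 at the left to Timp2 and Timp3 at the right, and Mmp2 and Mmp3 lie above Mmp11 and Mmp14.

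Levels of different genes were compared per length, as the mean normalized count per kilobase of annotated exons (GENCODE M21). In wild type lung Timp2 led with 5810 per kilobase, followed by Timp3 with 4246. Next came the metalloproteinases Mmp2 (754), Mmp11 (631), Mmp3 (437), Mmp14 (330) and Mmp19 (312), with Timp1 below them at 202 per kilobase. Mmp12 and Timp4 were lowest, at 24.4 and 16.3. The order was the same in knockout, where Timp2 stood at 5855 and Timp4 at 18.7. Of the 9 steps between neighbours in the wild type order, that from Mmp14 to Mmp19 was smaller than the modelled spread of single libraries. It was 1.06-fold, against 1.10-fold for 1 SD of the ratio of 2 genes in a library, if they vary independently. Means of 3 libraries vary less than single ones, so this does not say whether the order of these 2 genes is secure.

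The 4 inhibitors made up 80.5% of the summed level per kilobase of the 10 genes in wild type and 81.0% in knockout. From the modelled spread of the single genes, that share would vary by 0.878 percentage points (SD) between single libraries. How the genes vary together between libraries is not known, and means of 3 libraries vary less than single ones. The difference between the genotypes was therefore not judged by this SD. With the longest transcript as the length, Timp3 came before Timp2 (7322 against 6103 per kilobase in wild type) and Mmp14 before Mmp3 (608 against 437). These orders therefore depend on which transcripts are taken as the gene.

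**Figure D3:**
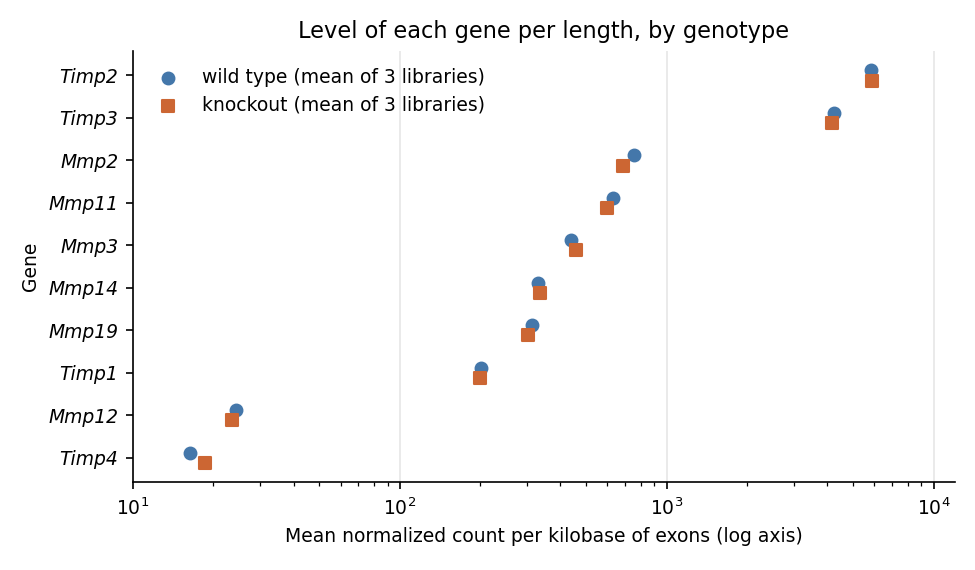
Mean normalized count per kilobase of exons (log axis) of each gene in wild type (circles) and knockout (squares), each the mean of 3 libraries with no error available for single groups. Timp2 and Timp3 lie at 4172 or above, Mmp12 and Timp4 at 24.4 or below, and the symbols of the genotypes lie close together for every gene.

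Several of the genes lie inside, or against, another gene. The library kit named in the labels does not mark strand, and the counting rule is not given in the sources used here, so reads from overlapping exons on opposite strands cannot be told apart. Timp1, Timp3 and Timp4 each lie within a synapsin gene on the opposite strand, Syn1, Syn3 and Syn2. The exons of Timp3 shared 1733 bases, 21.3% of their length, with annotated exons of Syn3, and the Syn3 row stood at 14931 in wild type and 14207 in knockout in the authors' deposited table. Syn3 encodes a protein of nerve terminals, and how many reads of its row came from Timp3 was not tested. Timp4 shared 90 bases with Syn2, whose means were 288 and 337 in that table of the authors, and Timp1 shared 0 with Syn1 (71.2 and 69.5). Mmp19 shared 789 bases (22.3%) with Tmem198b at 866 and 797 normalized counts, and Mmp11 shared 155 (5.58%) with Chchd10 at 2476 and 2406. Mmp19 also lay inside the antisense gene Gm47093, sharing 212 bases (6.00%), and Mmp12 shared 157 (2.17%) with Mmp1b on the opposite strand. Neither Gm47093 nor Mmp1b had a row in the authors' deposited table. None of the 5 overlapping genes with counts was called in the authors' DESeq2 comparison (adjusted p from 0.642 for Syn2 to 0.997 for Syn1).

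The chromosome 9 cluster sets Mmp3 and Mmp12 beside close relatives. It spans 427 kb and holds 10 annotated genes, of which 7 had a row in the authors' deposited table. Mmp8, the collagenase stored in neutrophil granules, was called in the authors' DESeq2 comparison, rising from 242 to 356 normalized counts (ratio 1.47, interval 1.25 to 1.73, adjusted p = 0.00116). Mmp13, collagenase-3, stood at 24.2 and 15.6 and Mmp27 at 22.1 and 21.2 in the authors' deposited table, and neither was called (adjusted p = 0.826 and 0.997). Mmp10, stromelysin-2, at 7.03 and 9.57, and Mmp7, matrilysin, at 0 and 0.653, were too low for an adjusted p there. Most tested neutrophil markers also had higher means in knockout. Of 6 tested markers 5 were called, all higher (S100a8, S100a9, Csf3r, Cxcr2 and Retnlg), against 1.09% of all tested rows. The summed mean of the 8 markers with a row was 8877 in wild type and 12018 in knockout. Camp and Ngp, made early in granulocyte development, stood at 0.694 and 6.63 in wild type and 1.97 and 14.3 in knockout, too low for an adjusted p, and Ltf was not called (2449 and 1366, adjusted p = 0.885 in the authors' DESeq2 comparison). The part of neutrophil number in the Mmp8 value was not tested. Mmp9, gelatinase B, another neutrophil granule protease, lies elsewhere and stood at 1073 in wild type and 1220 in knockout in the authors' deposited table (ratio 1.14, interval 0.965 to 1.34, adjusted p = 0.787).

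For 5 rare metalloproteinases the group means could be resolved into reads of single libraries. Within a genotype they are given in the same order of libraries for every gene, not matched to sample names. Mmp13, collagenase-3, had 24, 23 and 25 reads in wild type and 18, 13 and 16 in knockout. The knockout libraries all lay below the wild type ones after scaling (12.7 to 17.6 against 22.8 to 26.0 normalized counts). Mmp16, a membrane-type protease, had 46, 44 and 50 reads in wild type and 29, 34 and 40 in knockout, and again the genotypes did not overlap. Among 1671 tested rows with a mean of at most 50 that could be resolved in this way, 16.7% did not overlap, and in the authors' DESeq2 comparison neither gene was called (adjusted p = 0.826 for Mmp13 and 0.822 for Mmp16). Mmp27 had 27, 21 and 18 reads in wild type and 26, 17 and 21 in knockout, and these overlapped. Mmp10, stromelysin-2, had 7, 8 and 6 reads against 8, 13 and 8 in knockout, the 13 in the library with the most Wt1 reads. Of Mmp7, matrilysin of airway and gut epithelium, 2 reads were found, both in that same knockout library.

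The bases before the start of the cluster genes are shown because most of them carry the letters of the AP-1 element and genes of AP-1 factors were measured in the same libraries. Promoter windows from RefSeq (GRCm38.p6, 250 bases before to 50 after each start) were found for 8 of the 10 members, with none found for Mmp2 and Mmp19. Each line gives the 120 bases before a start, 5′ to 3′ on the plus strand, with TGAGTCA or its reverse complement TGACTCA in capitals. Mmp3 (chr9:7445702-7445821), the second RefSeq start of Mmp12 (chr9:7347254-7347373), Mmp10 (chr9:7502222-7502341) and Mmp13 (chr9:7272394-7272513) hold it, and Mmp8 (chr9:7558309-7558428) does not.
Mmp3: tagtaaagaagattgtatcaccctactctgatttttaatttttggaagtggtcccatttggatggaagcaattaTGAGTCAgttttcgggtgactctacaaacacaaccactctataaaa
Mmp12: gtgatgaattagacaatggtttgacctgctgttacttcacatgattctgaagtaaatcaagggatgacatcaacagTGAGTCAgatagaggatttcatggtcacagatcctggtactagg
Mmp10: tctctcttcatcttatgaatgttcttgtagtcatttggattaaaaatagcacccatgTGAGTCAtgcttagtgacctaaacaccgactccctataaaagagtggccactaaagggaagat
Mmp13: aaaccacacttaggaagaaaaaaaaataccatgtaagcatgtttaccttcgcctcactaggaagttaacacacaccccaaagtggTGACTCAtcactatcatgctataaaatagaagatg
Mmp8: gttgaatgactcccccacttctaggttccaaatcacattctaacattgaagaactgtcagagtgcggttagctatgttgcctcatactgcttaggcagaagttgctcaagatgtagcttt

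The AP-1 letters were found, on either strand, in 5.20% of the 32851 RefSeq windows of this length. In the cluster 7 of 10 genes had them, between 35 and 93 bases before a start, and of the 12 other family genes with a window 0 did. A gene was counted if any of its windows had them, whereas the 5.20% is a share of windows. Among the members they stood before Mmp3 and before the second RefSeq start of Mmp12, while the window of its first start had no match. No match was found in the windows of Mmp11, Mmp14, Timp1, Timp2, Timp3 and Timp4. A match is a description of these letters and not evidence of binding. The element TATAAA, also read on both strands, occurred in 13.6% of all windows. It was in a window of 9 of the 10 cluster genes, Mmp3 and Mmp12 included. For Mmp12 it was absent from the first window and lay after the second start, at position 4.

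Of 12 genes of AP-1 and Ets factors 11 had lower means in knockout. Of the 12 genes 1 was called, against 1.09% of all tested rows. This was Atf3, a stress-induced partner of Jun, which fell from 4602 to 1010 normalized counts in the authors' DESeq2 comparison (ratio 0.220, interval 0.0947 to 0.509, adjusted p = 0.0413). Its spread between libraries was 52.6% by the coefficient of variation, and without the authors' filter on low means it was not called. Of the 12, 7 had an unadjusted p under 0.05, all lower, against 8.47% of all tested rows. The median log2 ratio was -0.27. Fos stood at 21779 and 11013 and Junb at 14397 and 8126 in the authors' deposited table, neither called (adjusted p = 0.149 and 0.255). The spread was 28.2% for Fos and 26.4% for Junb, against 11.4% for Mmp3 and 13.6% for Mmp12. Beside these values the ratios of the 2 members with the AP-1 letters were 1.04 (Mmp3) and 0.967 (Mmp12). Whether AP-1 acts on either gene in this tissue was not tested.

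Proteins that activate or clear metalloproteinases held 2 called genes, both lower, among 21 tested of 23 listed, against 1.09% of all tested rows. Thbs1, the matrix glycoprotein thrombospondin 1, fell from 11259 to 6728 normalized counts in the authors' DESeq2 comparison (ratio 0.598, interval 0.448 to 0.797, adjusted p = 0.0439), a call lost without the filter on low means. Genes of the list that were not called included Reck, a membrane-anchored inhibitor of metalloproteinases, at 3296 and 3407, and Lrp1, the receptor that removes protease and inhibitor complexes, at 15338 and 15058 (adjusted p = 0.991 and 0.997 in the authors' DESeq2 comparison). Before adjustment, p lay below 0.05 for 4 of the 21 tested genes, the 2 called ones included. All 4 had lower means in knockout, and among all tested rows 8.47% passed that limit. Reck and Lrp1 were not among these 4, so they do not stand for the rest of the list. The median log2 ratio of the list was -0.04.

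Among 25 tested ADAM and ADAMTS proteases, relatives of which some are targets of Timp3, 1 was called, against 1.09% of all tested rows. Adamts1, which cuts versican and aggrecan, fell from 8728 to 6885 in the authors' DESeq2 comparison (ratio 0.789, interval 0.702 to 0.887, adjusted p = 0.0110). Adam17, the sheddase inhibited by Timp3, had means of 3394 and 3569 (adjusted p = 0.885). Of 18 matrix substrates 0 were called and 14 were lower, with a median log2 ratio of -0.08. Of the 18, 4 had an unadjusted p under 0.05, all lower, against 8.47% of all tested rows. Perlecan (Hspg2) and the type IV collagen chain Col4a1, a substrate of Mmp2, had the lowest p-values of that list, at 9249 against 7192 and 26990 against 23618 (adjusted p = 0.0838 and 0.325 in the authors' DESeq2 comparison). Without the authors' filter on low means, Mmp8 and Adamts1 kept an adjusted p under 0.05 (0.00140 and 0.0134). Atf3 and Thbs1 then had 0.050007 and 0.0531, so the Atf3 call was lost only at the edge of the threshold.

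**Figure D4:**
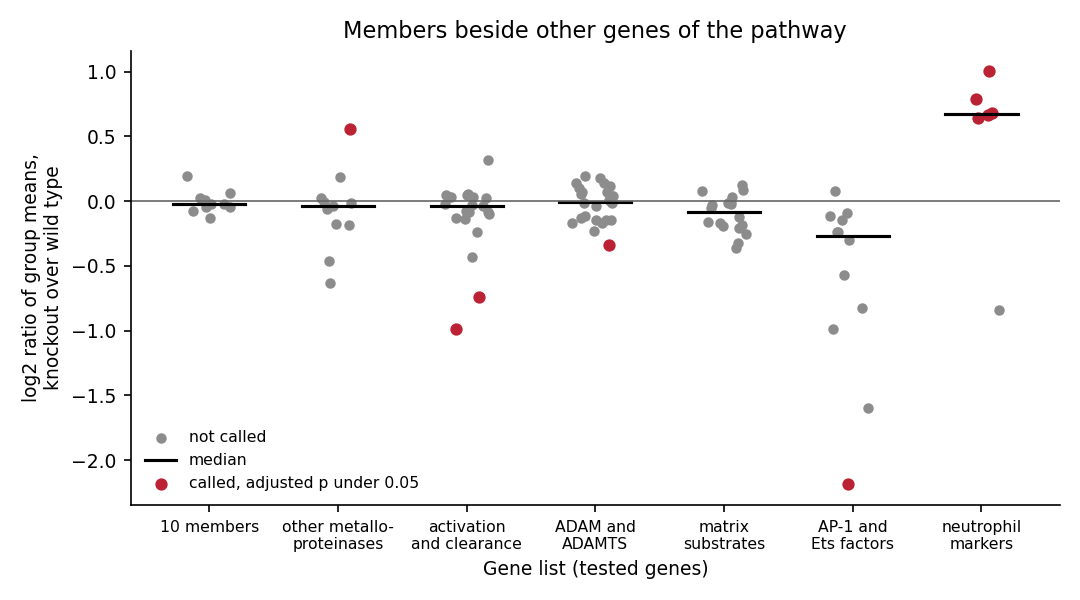
Log2 of the knockout mean over the wild type mean (vertical axis) for the tested genes of each list (horizontal axis); red points are called at an adjusted p under 0.05 and black lines are medians. The 10 members lie between -0.13 and 0.19 with none called, while 1 of the other metalloproteinases (Mmp8), 2 genes of activation and clearance, 1 ADAMTS protease, 1 AP-1 factor and 5 neutrophil markers are called.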

How the data were processed

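Whole-lung RNA from 6 mice, 3 per genotype, was made into libraries with TruSeq RNA kit v2 from 500 ng and read as 50 bp paired ends, per the labels' protocols. Bowtie2, STAR 2.5.1b, SAMtools, bedtools, DESeq2 and mm10 are named in the submitters' processing notes, without role or order. Per the file headers, the authors deposited a signal (mean normalized counts of each genotype and of all 6 libraries), a log2 fold change shrunken towards 0 with its standard error, a Wald score, and p-values with adjusted p-values. Positive values mean higher in knockout, checked against the group means.

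Calls are those of the authors' DESeq2 comparison. The deposited adjusted p-values equal a Benjamini-Hochberg adjustment over the 16902 rows that have one. Ratios are of the group means. The shrinkage matched 1 prior SD of 0.169 on the log2 scale (0.169 to 0.170, 5th to 95th percentile of 1781 rows), which is why the log2 ratio divided by the Wald statistic was taken as the SE before shrinkage. Library spread was that SE times the factor for 3 libraries against 3. Genes were placed by symbol with GENCODE M21 on mm10. Values of single libraries are not in the table. Group means of low genes could be resolved into whole reads of 3 libraries, but no member in both groups in only 1 way, so members are given as group means, and no count model, leave-one-out or likeness of pattern between genes was computed. Python 3.11.15 was used, and the procedures were tested on simulated data.

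The members, lists and tests were chosen with earlier results of these data known. Named are all members, called genes of other lists or the 2 with the lowest p, the targeted gene and Ptgs2; further genes (Furin, Reck, Lrp1, Adam17, Fos, Junb, overlapping and cluster genes) were named for their role or position, after their values were seen, and further marker lists are given by counts. Of the activation and clearance list, 1 called gene is not reported here.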

Additional observations from a re-analysis of the deposited data

How the results depend on the processing

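The count of 0 called members was the same at an adjusted p under 0.1, at an unadjusted p under 0.05, without a filter on low means and at a mean of at least 50. The lowest unadjusted p of a member was 0.257 in the authors' DESeq2 comparison, so none of these settings could have changed the count. With the median log2 ratio set to 0, the direction of 10 of 10 members held. That median was only -0.0013, and the member ratio nearest 0 was 0.011 on the log2 scale (Timp2). Neither this setting nor the shrunken fold change, a pseudocount of 10 or the row with the lowest mean could change a direction. Of the pathway genes outside the members, 5 were called; an unadjusted p under 0.05 gave 18 and no filter on low means gave 2, both alternatives added after the data were seen. With the longest transcript as length, the Timp genes held 82.0% of the summed level in wild type in place of 80.5%. The planned edgeR and DESeq2 fits, and those without single libraries, were not run, since reads per library were not recovered for these genes. No paired analysis was possible because values of single libraries are not in the table. Depth limits Timp4, Timp1 and Mmp12 most.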

Other observations

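By the authors' DESeq2 comparison, all 7 markers of smooth muscle and pericytes had lower means in knockout, with a median log2 ratio of -0.22. Of these 7, 0 were called, although 3 had an unadjusted p under 0.05, against 8.47% of all tested rows. Of 8 markers of interstitial macrophages and monocytes, 6 had higher means and 0 were called. All 4 alveolar type 2 markers had higher means, by a median log2 ratio of 0.07, and 0 were called. All 4 endothelial markers had lower means, by a median of -0.05, and 0 were called. Neither the 4 markers of alveolar type 1 cells nor the 4 of airway cells held a called gene.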
